A study of Mus musculus with 20 samples.

Results

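Toll-like receptors (TLRs) are innate immune receptors that recognise molecules of microbes and of damaged tissue. The genes described here were 7 receptors, Tlr1, Tlr2, Tlr3, Tlr4, Tlr5, Tlr7 and Tlr9, together with the LPS co-receptors Cd14 and Ly96 and the adaptor Myd88. They were taken by gene symbol, with no threshold on their values but with earlier results of these data known, and all 10 of 10 were found among the 45777 genes of the expression table. Expression was measured by RNA-seq in the uterus of B6D2F1 female mice, wild type and 8 to 12 weeks old, collected at 18:00 on day 3.5 of pregnancy, where the morning of the vaginal plug was day 0.5. Control mice received no treatment. The implantation failure (IF) mice were injected subcutaneously on the morning of day 3.5 with RU486, an antagonist of the progesterone and glucocorticoid receptors, and so were the mice of the other two groups. On day 1.5 the PBMC group had also received, into the uterus, peripheral blood mononuclear cells cultured without human chorionic gonadotropin (hCG), and the PBMC-hCG group such cells cultured with hCG. There were 5 mice per group and 1 library per mouse. The cells came from other, non-pregnant mice and were injected in culture medium under anesthesia, a procedure not described for control and IF mice. Comparisons of PBMC or PBMC-hCG with IF thus differ by the cells and by this procedure at once, and those with control also by RU486. An injection without RU486 is not described for control mice, so RU486 and its injection cannot be told apart in any comparison with control. A group given only culture medium with hCG was not analysed here, so the cells and the procedure cannot be told apart. Whole uterine tissue was sequenced, so donor cells and the tissue's own cells are read together, and fewer cells of a type and less RNA per cell cannot be told apart.

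Each TLR is a transmembrane protein with a ligand-binding outer part and an inner domain that recruits adaptors. TLR1, TLR2, TLR4 and TLR5 act mainly at the cell surface, where they bind bacterial lipopeptides, lipopolysaccharide (LPS) and flagellin, whereas TLR3, TLR7 and TLR9 sense nucleic acids in endosomes. MyD88 relays the signal of all TLRs in the list except TLR3, which signals through the adaptor encoded by Ticam1, and the pathways end in activation of NF-kB and of interferon regulatory factors. In the uterus these receptors are known from epithelial, stromal and immune cells.

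Expression is given in TPM, a unit of relative transcript abundance that accounts for gene length, so levels can be compared between genes. Every gene was above 0 TPM in all 20 libraries. Over the 20 mice the order of the mean levels was Myd88 at 67.3 TPM, Tlr2 at 39.1, Cd14 at 38.5, Ly96 at 19.1, Tlr4 at 15.2, Tlr3 at 9.07, Tlr7 at 4.06, Tlr1 at 3.78, Tlr9 at 3.23 and Tlr5 at 1.46 TPM. Within single mice, Tlr2 was above Cd14 in 12 of 20, Tlr7 above Tlr1 in 14 of 20 and Tlr1 above Tlr9 in 15 of 20, so these neighbours were not clearly ordered. Myd88 was above Tlr2 in 18 of 20 mice, and each of the other neighbouring pairs kept its order in 20 of 20. The highest mouse exceeded the lowest 3.46-fold for Myd88, 2.81-fold for Tlr7 and 1.68-fold for Ly96.

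**Figure D1:**
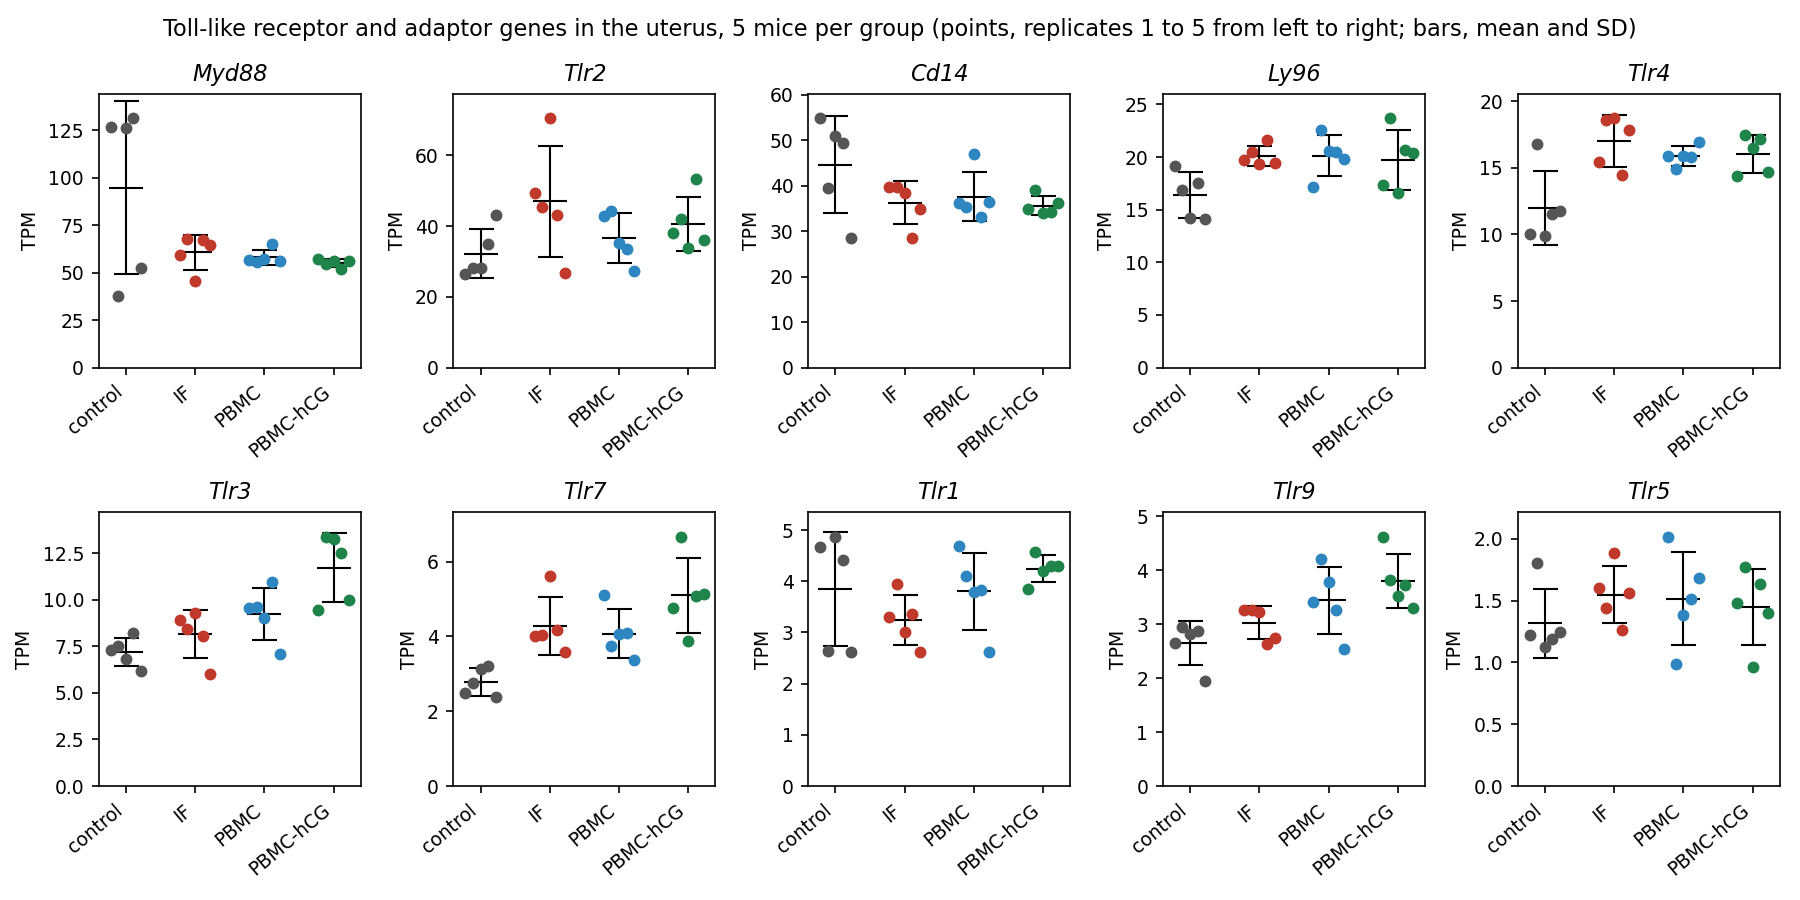
TPM of the 10 genes (y axis, linear scale from 0, a separate scale per gene) in the 4 groups (x axis). Points are single mice, replicates 1 to 5 from left to right, and bars give the mean and SD of 5 mice. Tlr7 was above all 5 control mice in every RU486-treated mouse, and the control mice were split for Myd88, with 3 mice between 126 and 131 TPM and the others at 38.0 and 52.6 TPM.

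Promoter sequences from RefSeq (GRCm38.p6) were found and used for 6 of the 10 genes, namely Tlr1, Tlr2, Tlr3, Tlr5, Tlr9 and Myd88. The 250 bases before each start were searched on both strands for the kB consensus bound by NF-kB, for the interferon-response core (GAAA and GAAA with 2 bases between), for the progesterone and glucocorticoid receptor element (AGAACA and TGTTCT with 3 bases between) and for the estrogen receptor element (GGTCA and TGACC with 3 bases between). Tlr2 and Tlr3 held a kB match and Myd88 held the interferon-response core, while none of these letters was found in the windows of Tlr1, Tlr5 and Tlr9. Of 32851 promoters of the same length, 7.25% held a kB match, 2.98% the interferon-response core, 0.0639% the estrogen element and 0.00913% the progesterone and glucocorticoid element. The matches are shown because Tlr3 was the gene called in PBMC-hCG against IF and Myd88 the gene with the widest spread, with Tlr2 beside Tlr3 as the other gene with a kB match. Each line gives 30 bases, 5′ to 3′ on the strand of the gene, with the match in capitals. In Tlr2 the capitals hold 2 overlapping kB matches, and each window overlaps an exon of another transcript of its gene. A match is a description of the letters only.
Tlr2, 173 to 163 bases before the start, chr3:83841762-83841791, minus strand: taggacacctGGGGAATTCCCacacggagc
Tlr3, 211 to 202 bases before the start, chr8:45410572-45410601, minus strand: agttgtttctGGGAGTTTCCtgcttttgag
Myd88, 40 to 31 bases before the start, chr9:119340039-119340068, minus strand: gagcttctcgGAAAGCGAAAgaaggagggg

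The first comparison, IF against control, asks what RU486 and its injection changed together in the preimplantation uterus. Of the 10 genes, 3 rose (Tlr7, Tlr4 and Ly96) and 0 fell at an adjusted p under 0.05, while 13.4% of the 18706 genes tested rose and 8.53% fell. The test was limma on log2(TPM + 0.1) across all 4 groups, with Benjamini-Hochberg adjustment in each comparison, and fold changes below are on that scale. The share of 3 in 10 was not tested against this background, and the median log2 fold change of the 10 genes was 0.21 against 0.02 over all genes tested. None of the 10 genes reached a fold of 2 with an unadjusted p under 0.05 in any of the 6 comparisons (limma). Of all genes tested, 4.03% did so in IF, 3.34% in PBMC and 4.74% in PBMC-hCG against control, and 0.438% in PBMC against IF, 2.31% in PBMC-hCG against IF and 0.893% in PBMC-hCG against PBMC.

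The surface receptors of bacterial lipopeptides, Tlr1 and Tlr2, which encode partners in a heterodimer, passed the test in 0 of the 6 comparisons. Tlr2 (chr3:83836272-83841824, minus strand, GRCm38 here and below) was 26.4, 28.3, 28.0, 35.0 and 43.2 TPM in control replicates 1 to 5. In IF replicates 1 to 5 it was 49.4, 45.5, 70.4, 43.2 and 26.7 TPM. IF replicate 5 lay among the controls while the other 4 IF mice were level with or above the highest control, and the log2 fold change was 0.50 (SE 0.20, adjusted p = 0.0861, limma). Without IF replicate 5 the adjusted p was 0.0118, and without control replicate 5, the highest control, 0.0435. In the PBMC group Tlr2 ranged from 27.4 to 44.4 TPM and in the PBMC-hCG group from 33.9 to 53.2 TPM, and both groups overlapped control and IF. The difference between PBMC-hCG and IF was -0.16 on the log2 scale, with a 95% interval from -0.59 to 0.27.

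Tlr1 (chr5:64924680-64933600, minus strand) was 4.67, 2.64, 4.87, 4.41 and 2.62 TPM in control replicates 1 to 5. The control mice fell apart into 3 mice above 4 TPM and replicates 2 and 5 below 3 TPM. In IF mice it was 3.25 ± 0.487 TPM and in PBMC-hCG mice 4.25 ± 0.261 TPM (SD, n = 5 each). PBMC-hCG exceeded IF by 0.39 on the log2 scale (SE 0.18, unadjusted p = 0.0475, adjusted p = 0.139, limma), and the groups overlapped, since IF replicate 2 at 3.94 TPM was above PBMC-hCG replicate 1 at 3.85 TPM. Tlr1 has a close paralogue in Tlr6, and how reads that match both were assigned is not given in the sources used here.

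The LPS receptor consists of TLR4 and its partner MD-2, encoded by Ly96, and is loaded with LPS by CD14. Tlr4 and Ly96 rose after RU486, and Cd14 did not. Tlr4 (chr4:66827551-66846581, plus strand) was 10.003, 16.8, 9.89, 11.6 and 11.7 TPM in control replicates 1 to 5. It was 15.4, 18.6, 18.7, 14.5 and 17.8 TPM in IF replicates 1 to 5. Control replicate 2 alone lay inside the IF range, and the other 4 controls were below every IF mouse. Tlr4 rose 1.44-fold (log2 fold change 0.52, SE 0.12, adjusted p = 0.00366, limma).

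Tlr4 stayed above control in both groups given cells. The PBMC mice had 15.9, 14.9, 15.9, 15.8 and 17.0 TPM in replicates 1 to 5, and the PBMC-hCG mice had 14.4, 17.5, 16.5, 17.2 and 14.7 TPM. All 10 of these mice were above 4 of the 5 controls and overlapped the IF mice. Against control, Tlr4 was higher by 0.43 on the log2 scale in PBMC (adjusted p = 0.0143) and by 0.44 in PBMC-hCG (adjusted p = 0.00841, limma). The call in PBMC against control was lost when only those 2 groups were fitted (adjusted p = 0.0591). Against IF, the log2 fold change of Tlr4 was -0.09 in PBMC (95% interval -0.34 to 0.16) and -0.08 in PBMC-hCG (-0.33 to 0.16). Both intervals included 0.

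Ly96 (chr1:16688456-16709605, plus strand) was 19.2, 16.9, 14.2, 17.6 and 14.1 TPM in control replicates 1 to 5. It was 19.7, 20.4, 19.3, 21.6 and 19.4 TPM in IF replicates 1 to 5. The lowest IF mouse was just above the highest control, with no overlap, as for 8.55% of all genes tested in the higher direction. Ly96 rose 1.23-fold in IF (log2 fold change 0.30, SE 0.10, adjusted p = 0.0386, limma) and 1.23-fold in PBMC against control (adjusted p = 0.0442). In each of these comparisons leaving out a single mouse ended the call in 6 of 10 cases, and quantile normalization ended it too, at adjusted p = 0.0700 and 0.0909 (limma). TMM-style scaling also ended both calls (adjusted p = 0.0605 and 0.0951), as did fitting only the 2 groups compared (0.0624 and 0.0920, limma). In PBMC against control the call was lost as well when genes above 0 TPM in at least 5 libraries were tested (adjusted p = 0.0537, limma). In PBMC-hCG the mean was 19.7 ± 2.84 TPM (SD, n = 5), and the difference from control missed the threshold (log2 fold change 0.27, adjusted p = 0.0523).

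Cd14 (chr18:36725064-36726815, minus strand) was 54.8, 39.4, 50.9, 49.4 and 28.4 TPM in control replicates 1 to 5. The highest 3 controls were above all 15 RU486-treated mice, which lay between 28.6 and 47.0 TPM, and control replicate 5 was below all of them. Cd14 passed the test in 0 of 6 comparisons, with a log2 fold change of -0.27 in IF against control (SE 0.14, adjusted p = 0.198, limma). Without control replicate 5 it was lower in IF (-0.42, adjusted p = 0.0133), in PBMC (-0.37, adjusted p = 0.0310) and in PBMC-hCG (-0.44, adjusted p = 0.00875), so this single mouse decided the call.

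Tlr5 (chr1:182954752-182976044, plus strand), the flagellin receptor, had the lowest level of the 10 genes, between 0.961 and 2.02 TPM over the 20 mice. Its group means were 1.32 ± 0.277 TPM in control, 1.55 ± 0.228 in IF, 1.52 ± 0.378 in PBMC and 1.45 ± 0.307 TPM in PBMC-hCG (SD, n = 5 each). All 4 groups overlapped and 0 of 6 comparisons passed the test. The largest difference was 0.23 on the log2 scale, in IF against control, with a 95% interval from -0.16 to 0.62.

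**Figure D2:**
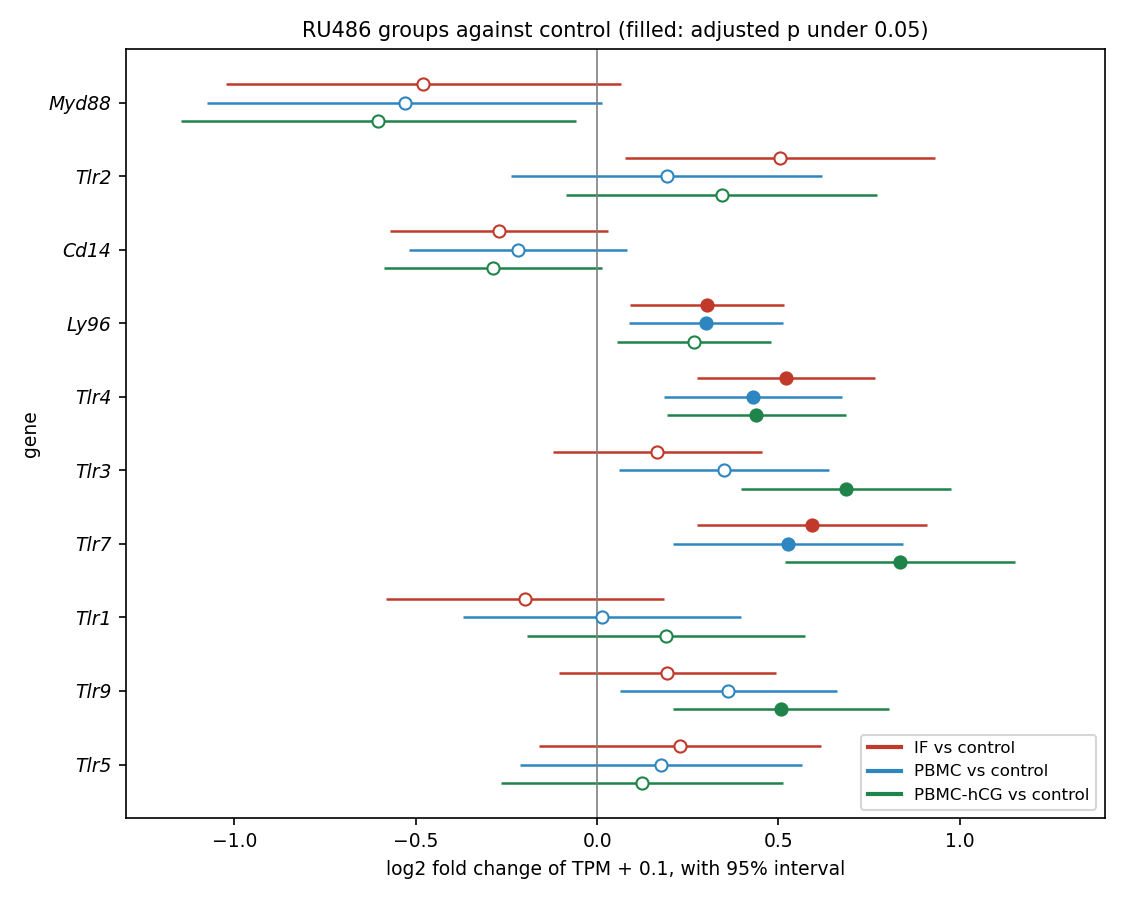
Log2 fold change of TPM + 0.1 (x axis) for each of the 10 genes (y axis) in IF, PBMC and PBMC-hCG against the same 5 control mice. Points are limma estimates, lines 95% intervals, and filled points have an adjusted p under 0.05. Tlr4 and Tlr7 were called in all 3 comparisons, and Tlr3 and Tlr9 in PBMC-hCG against control only.

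The receptors of nucleic acids in endosomes are described next. Tlr7, which senses single-stranded RNA, rose in all 3 RU486 groups against control. Tlr3, which senses double-stranded RNA, rose in PBMC-hCG against both control and IF. Tlr9, which senses unmethylated CpG DNA, rose in PBMC-hCG against control.

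Tlr7 (chrX:167303380-167330574, minus strand) was 2.47, 2.76, 3.13, 3.21 and 2.37 TPM in control replicates 1 to 5. It was 4.004, 4.04, 5.60, 4.16 and 3.57 TPM in IF replicates 1 to 5. The PBMC mice had 5.10, 3.74, 4.08, 4.08 and 3.36 TPM and the PBMC-hCG mice had 4.76, 6.66, 3.87, 5.08 and 5.12 TPM. All 15 RU486-treated mice were above the highest control at 3.21 TPM, whereas the 3 RU486 groups overlapped each other. No overlap in the higher direction was found for 8.55% of all genes in IF, 8.65% in PBMC and 13.2% in PBMC-hCG against control. Tlr7 rose 1.51-fold in IF (log2 fold change 0.59, SE 0.15, adjusted p = 0.00863), 1.44-fold in PBMC (adjusted p = 0.0191) and 1.78-fold in PBMC-hCG (log2 fold change 0.84, adjusted p = 0.000465, limma). In PBMC against control the call was lost without control replicate 5 (adjusted p = 0.0514) or PBMC replicate 1 (adjusted p = 0.0572). The difference between PBMC-hCG and PBMC was 0.31 on the log2 scale (95% interval -0.01 to 0.63) and between PBMC-hCG and IF 0.24 (-0.07 to 0.56), and neither passed the test.

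Tlr3 (chr8:45395665-45411075, minus strand) was 7.28, 7.51, 6.83, 8.20 and 6.15 TPM in control replicates 1 to 5 and 8.93, 8.45, 9.28, 8.05 and 5.996 TPM in IF replicates 1 to 5. In the PBMC mice it was 9.56, 9.58, 9.04, 11.0 and 7.10 TPM. In the PBMC-hCG mice it was 9.46, 13.4, 13.3, 12.5 and 9.98 TPM. Control and IF overlapped, PBMC overlapped every other group, and all 5 PBMC-hCG mice were above all 10 control and IF mice. Of all genes, 5.05% had no overlap in the higher direction in PBMC-hCG against IF and 13.2% against control. In the annotation Tlr3 is overlapped by the antisense gene Gm45542, and without knowledge of whether strand was used in the counting, reads of the pair cannot be told apart.

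The comparison of PBMC-hCG with IF asks what the hCG-cultured cells and their injection into the uterus changed together under RU486. In it Tlr3 was the 1 of 10 genes that rose and 0 fell, beside 7.61% of all genes that rose and 5.99% that fell. The rise of Tlr3 was 1.43-fold (log2 fold change 0.52, SE 0.14, adjusted p = 0.0309, limma). When 1 of the 10 mice was left out, the call held in 3 cases (replicates 1 and 3 of the IF mice and replicate 1 of the PBMC-hCG mice) and was lost in the other 7. The adjusted p then ranged from 0.0124 to 0.106 over the 10 cases, and the log2 fold change from 0.42 to 0.59. For most genes this comparison lost its calls in the same cases, since 2544 genes were called with all mice and between 0 and 34 in each of the 7 cases in which Tlr3 was not. Against control, Tlr3 rose 1.61-fold in PBMC-hCG (log2 fold change 0.69, adjusted p = 0.00111), a call kept in 10 of 10 cases. In IF against control the difference was 0.17 (95% interval -0.12 to 0.45) and in PBMC against control 0.35 (adjusted p = 0.0836, limma).

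Tlr9 (chr9:106222598-106226876, plus strand) was 2.66, 2.95, 2.82, 2.87 and 1.95 TPM in control replicates 1 to 5 and 3.27, 3.26, 3.22, 2.64 and 2.74 TPM in IF replicates 1 to 5. The PBMC-hCG mice had 4.62, 3.82, 3.52, 3.72 and 3.30 TPM. The lowest PBMC-hCG mouse was above the highest IF mouse and the highest control, while the PBMC mice, between 2.55 and 4.21 TPM, overlapped all groups. Tlr9 rose 1.42-fold in PBMC-hCG against control (log2 fold change 0.51, SE 0.14, adjusted p = 0.0112, limma), without overlap, as for 13.2% of all genes in the higher direction. Against IF the groups did not overlap, as for 5.05% of all genes in the higher direction, but the test missed the threshold (log2 fold change 0.31, unadjusted p = 0.0407, adjusted p = 0.127, limma).

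The 2 groups given cells, PBMC-hCG and PBMC, differ by hCG, and here 0 of the 10 genes and 0.0107% of all genes passed the test (limma). Whether the medium injected with the hCG-cultured cells held hCG is not stated in the sources used here. Thus hCG in the culture and hCG in the injected fluid cannot be told apart. Only Tlr3 had an unadjusted p under 0.05 there, with a log2 fold change of 0.34 (95% interval 0.05 to 0.62, unadjusted p = 0.0246, adjusted p = 0.286, limma), beside 16.2% of all genes. In PBMC against IF, 0 of the 10 genes and 0% of all genes passed the adjusted test, and 0 of the 10 had an unadjusted p under 0.05 beside 6.79% of all genes (limma). That Tlr3 was called in PBMC-hCG against IF and not in PBMC against IF is thus not shown to be a difference between the cell preparations.

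**Figure D3:**
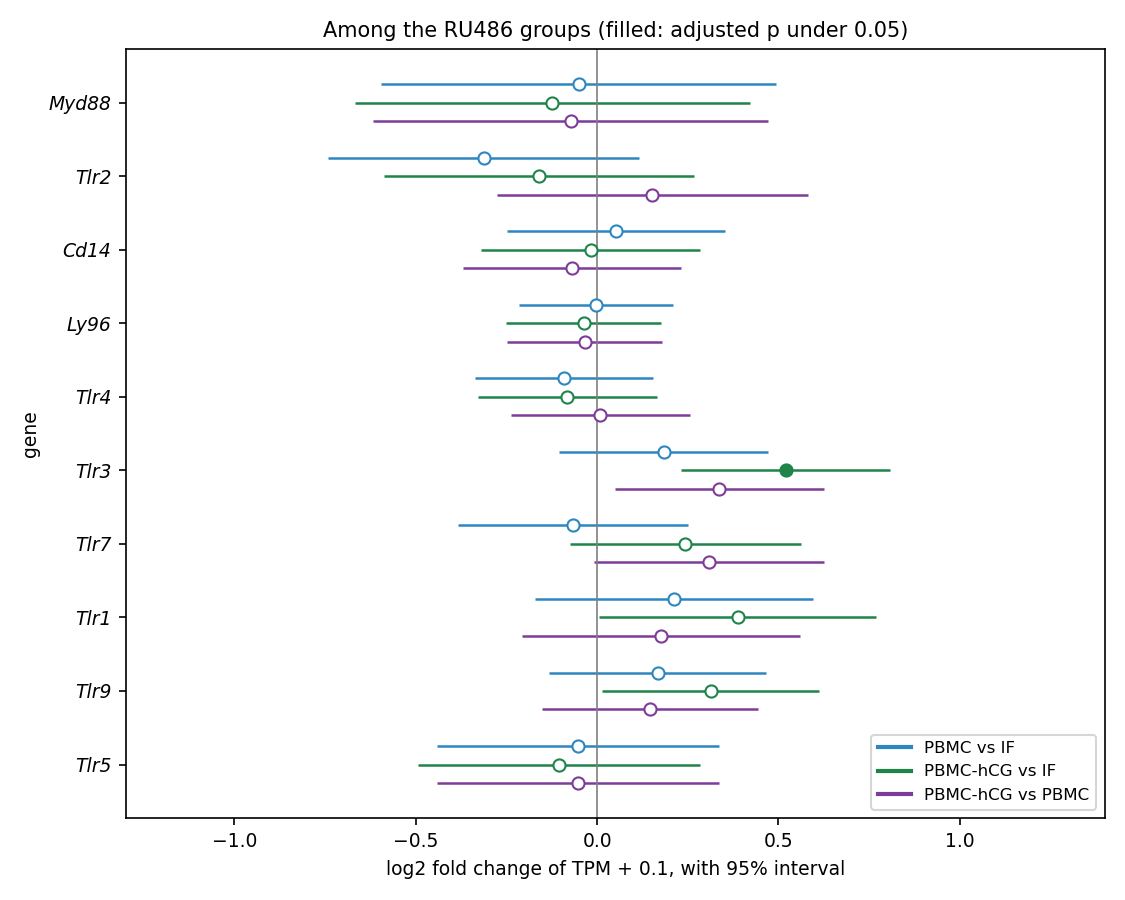
Log2 fold change of TPM + 0.1 (x axis) for each of the 10 genes (y axis) among the 3 groups given RU486. Points are limma estimates, lines 95% intervals, and filled points have an adjusted p under 0.05. Tlr3 in PBMC-hCG against IF, at 0.52, is the only filled point.

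With both kinds of cells, comparisons with control combine RU486, the cells and the injections of both, and all of them use the same 5 control mice. In PBMC against control, 3 of the 10 genes rose (Tlr7, Tlr4 and Ly96) beside 12.8% of all genes. In PBMC-hCG against control, 4 of the 10 genes rose (Tlr7, Tlr3, Tlr9 and Tlr4) beside 20.2% of all genes. In both, 0 of the 10 genes fell, beside 6.7% and 11.6% of all genes.

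Myd88 (chr9:119335934-119340018, minus strand), the shared adaptor, had the highest mean and the widest spread. Control replicates 1 to 5 had 127, 38.0, 126, 131 and 52.6 TPM. The IF mice had 59.5, 67.6, 45.4, 67.2 and 64.5 TPM, and all 15 RU486-treated mice lay between 45.4 and 67.6 TPM. Thus 3 control mice were above every RU486-treated mouse, control replicate 2 was below every one of them, and control replicate 5 lay among them.

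With this spread the differences of Myd88 did not pass the test. The log2 fold change was -0.48 in IF against control (SE 0.26, adjusted p = 0.207), -0.53 in PBMC (adjusted p = 0.170) and -0.60 in PBMC-hCG (adjusted p = 0.0841, limma). Without control replicate 2, Myd88 was called lower in all 3, at -0.77 (adjusted p = 0.00734), -0.82 (adjusted p = 0.00535) and -0.89 (adjusted p = 0.00179). Among the RU486 groups the SD was 9.23 TPM in IF, 3.98 in PBMC and 2.11 TPM in PBMC-hCG, and the differences between the means of 60.9, 58.2 and 55.3 TPM did not pass the test. A difference between these SDs was not tested. The SE of the log2 fold change of Myd88 was 0.26 in these comparisons too. The spread of the control mice enters it, because all 4 groups share 1 estimate of the spread. Myd88 overlaps Acaa1a on the other strand and Slc22a14 on its own in the annotation, and whether strand was used in the counting is not given in the sources used here. Acaa1a lay between 66.0 and 89.6 TPM over the 20 mice, with all 5 control mice between 69.2 and 89.6 TPM, and Slc22a14 was below 0.573 TPM in all. Whether reads of these genes entered the values of Myd88 was not tested.

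**Figure D4:**
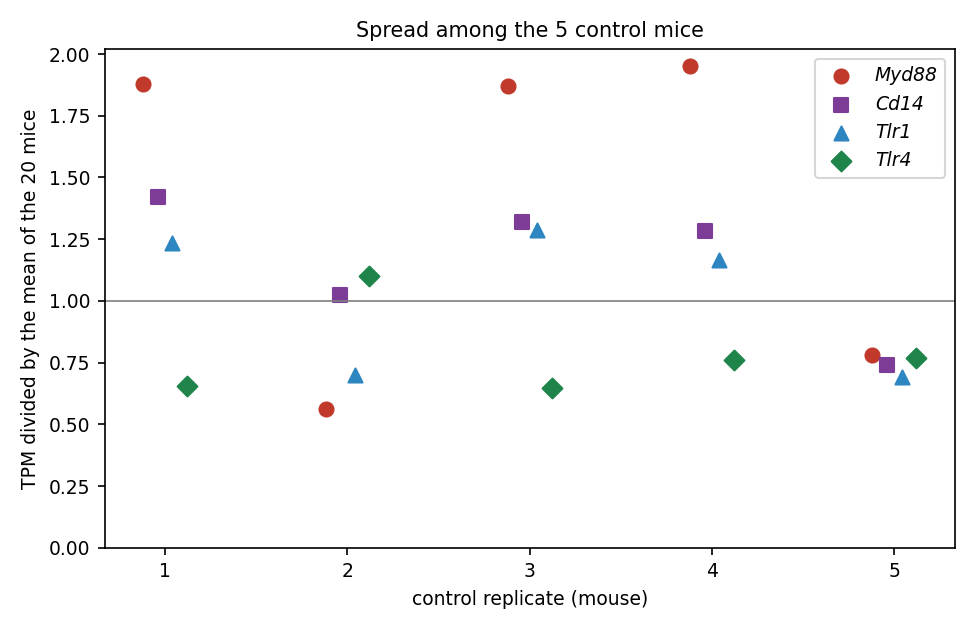
TPM of Myd88, Cd14, Tlr1 and Tlr4 in the 5 control mice (x axis, points set side by side within a mouse), divided by the mean of that gene over all 20 mice (y axis, linear scale). Replicates 1, 3 and 4 have Myd88 at 126 to 131 TPM, Cd14 at 49.4 to 54.8 TPM and Tlr1 at 4.41 to 4.87 TPM, and replicates 2 and 5 are lower for all 3 genes.

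Control replicates 2 and 5 were thus the 2 lowest controls for Myd88, Cd14 and Tlr1, and control replicate 2 was the highest control for Tlr4 and Tlr5. Control replicate 2 also stood apart across all genes, with a correlation of log2 values of 0.961 to 0.965 with the other controls, which correlated at 0.982 to 0.992 with each other. Without it, Tlr4, Tlr7 and Ly96 were still called higher in IF and in PBMC against control, Tlr3, Tlr4, Tlr7 and Tlr9 were still called in PBMC-hCG against control, and Ly96 was added there (adjusted p = 0.0492, limma).

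For each gene, the genes with the most similar pattern were sought among 15770 other genes by Pearson's r over the 20 mice, as a description. All values come from the same 20 libraries, and group differences enter them. Tlr3 was most like Dtx3l (r = 0.961, rho = 0.949, and r = 0.894 within groups), then Vgll4 (r = 0.956) and Rbm24 (r = 0.949). Myd88 was most like Klhl12 (r = 0.945), Npl (r = 0.927) and Hhip (r = 0.925), and by rank the values were lower, at rho = 0.711, 0.602 and 0.663. Tlr4 was most like Mitf (r = 0.935), Pnrc1 (r = 0.931) and Myo1d (r = 0.914).

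Tlr7 was most like Gm33989 (r = 0.925), Sp1 (r = 0.909) and Baz2b (r = 0.903), and Tlr9 was most like Wasf2 (r = 0.853), Tnfaip8l2 (r = 0.848) and Kdm4b (r = 0.844). Tlr1 was most like Slc25a11 (r = 0.922), Cited4 (r = 0.906) and Ppp1r14c (r = 0.902). The closest genes were less similar for Cd14 (Sidt1, r = 0.845, Klhdc7a, r = 0.801, and Ctsd, r = 0.786) and Tlr2 (Prpf6, r = 0.821, Clcn3, r = 0.799, and Znrf2, r = 0.782). For Tlr5 they were Ubl3 (r = 0.767), Zfp715 (r = 0.761) and Emx2 (r = 0.720), and for Ly96 Ifnar1 (r = 0.750), Pik3ca (r = 0.741) and Zfp628 (r = 0.736). Within groups the values for Ly96 were lower, at r = 0.521, 0.488 and 0.455, and those of the other genes were 0.703 to 0.953. None of the 10 genes appeared among the 3 most similar genes of another.

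Genes that mark cell types moved in the same comparisons. Of all genes, 13.4% were higher and 8.53% lower in IF, 12.8% and 6.7% in PBMC, and 20.2% and 11.6% in PBMC-hCG against control. No marker list was tested against these shares. The endothelial markers (Pecam1, Cdh5, Kdr, Tek and Emcn) rose in 5 of 5 genes in all 3 RU486 groups against control, and their summed level was 316 to 425 TPM in control, 473 to 510 in IF, 479 to 545 in PBMC and 523 to 590 TPM in PBMC-hCG, with no overlap with control. Epithelial markers rose in 4 of 5 genes in each of these comparisons, and their sum was 485 to 859 TPM in control and 859 to 1139 TPM in PBMC-hCG. Of 15 macrophage and monocyte markers 3 rose in IF, 2 in PBMC and 4 in PBMC-hCG against control, and their sums overlapped, at 1348 to 1507 TPM in control, 1439 to 1619 in IF, 1529 to 1653 in PBMC and 1425 to 1974 TPM in PBMC-hCG. Without control replicate 2, 1 macrophage and monocyte marker was called higher and 1 lower in IF, in place of 3 and 0, and in PBMC the count stayed at 2 although C1qc lost its call (adjusted p = 0.0658, limma).

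Of 5 stromal markers, Lum (0.88 on the log2 scale) and Pdgfrb (0.72) rose in IF against control, and Lum, Pdgfrb and Vim rose in PBMC (1.05, 0.74 and 0.56) and in PBMC-hCG (1.19, 0.78 and 0.49). Their sum overlapped, at 2171 to 4117 TPM in control, 3805 to 4500 in IF, 4171 to 5139 in PBMC and 3913 to 4770 TPM in PBMC-hCG. Of 7 T and NK cell markers, Cd4 (0.68) and Ncr1 (0.51) rose in PBMC-hCG against control and 0 in the other two groups, with sums of 33.0 to 44.3 TPM in control, 31.8 to 57.2 in IF, 31.4 to 48.1 in PBMC and 42.0 to 58.5 TPM in PBMC-hCG. Of 5 tested neutrophil markers, S100a9 (2.72) and S100a8 (1.64) rose in PBMC against control and S100a9 alone in IF and in PBMC-hCG (1.64), and of 7 dendritic cell markers 0 passed the test (limma). The neutrophil sums overlapped in all groups, from 75.9 to 173 TPM in control to 63.0 to 361 TPM in PBMC-hCG. The part of these cell type markers in the result was not tested.

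The leukocyte marker Ptprc rose by 0.39, 0.38 and 0.47 on the log2 scale in IF, PBMC and PBMC-hCG against control, and without control replicate 2 only the last call remained. Smooth muscle markers fell in 1, 0 and 4 of 5 genes in these comparisons, and in 2, 2 and 4 without control replicate 2. Of the 5 B cell markers, Cd79a and Cd79b were above 0 TPM in all 20 libraries, with group means of 1.22 to 2.52 and 3.08 to 3.53 TPM, and did not pass the test, whereas Ms4a1 and Pax5 were above 0 TPM in 14 and 15 libraries and reached at most 0.468 and 0.147 TPM. The summed B cell markers were 3.07 to 7.73 TPM in control, 3.91 to 5.47 in IF, 2.48 to 5.85 in PBMC and 3.78 to 8.38 TPM in PBMC-hCG. Uterine genes were present, with Esr1 at a mean of 108 TPM and Hoxa10 at 259 TPM in control mice.

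Other genes of the pathway moved in IF against control as follows, beside 13.4% of all genes higher and 8.53% lower, and no list was tested against these shares. Of 21 signal transducers 7 rose and 0 fell (median log2 fold change 0.20, against 0.02 over all genes). They were Irf7, an interferon regulatory factor (0.78, adjusted p = 0.0401), Tab2 (0.36), Tirap, which bridges MyD88 to TLR2 and TLR4 (0.30), Ticam1, the TLR3 adaptor (0.29), Rela (0.27), Nfkb1 (0.23) and Tbk1 (0.22). Without control replicate 2, 8 of the 21 transducers rose and 1 fell. Of 13 negative regulators 3 rose, namely Socs1 (1.21, adjusted p = 0.00776, limma), Irak3, a kinase-dead member of the IRAK family (0.58), and Tollip (0.16, a call lost without control replicate 2). Of 7 chaperones and accessory proteins 2 fell, namely Cd36, a scavenger receptor and TLR2 co-receptor (-2.90, adjusted p = 7.9e-08), and Cnpy3, a TLR chaperone (-0.39), and of 5 other TLRs only Tlr8 rose (0.52), a call lost without control replicate 2.

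Of 7 genes of proteins described as endogenous TLR4 ligands, 4 rose in IF against control, with a median log2 fold change of 0.84. Dcn, a matrix proteoglycan, was 1653 to 1978 TPM in control and 2688 to 3577 TPM in IF. Tnc, a matrix glycoprotein, was 7.03 to 29.4 TPM in control and 30.6 to 254 TPM in IF, a log2 fold change of 2.54 (SE 0.60, adjusted p = 0.00515, limma). Fn1 rose by 0.98 and S100a9, which is also a neutrophil gene, by 1.37, a call lost without control replicate 2 (adjusted p = 0.0966, limma). These genes have many functions outside TLR signaling.

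None of the 12 tested inflammatory genes that TLRs induce passed the test in IF against control (limma). A further 7 of the 19 listed were not tested because they were at 0 TPM in at least 1 library. Ifnb1 was listed at 0 in all 20 libraries, and Il6 and Il10 were above 0 in 14 of 20, at no more than 0.877 and 0.563 TPM.

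In PBMC-hCG against IF the pathway genes that passed the test moved both ways, in a comparison whose calls rest on 7 of the 10 mice as given above for Tlr3. Irf7 rose by 0.85 (adjusted p = 0.0423, limma), from 39.6 to 100.04 TPM in the IF mice to 65.0 to 144 TPM in the PBMC-hCG mice. Among all genes tested, 7.61% were higher and 5.99% lower in PBMC-hCG against IF. No list was tested against these shares. Of the 21 transducers 2 fell, Rela by 0.22 and Chuk by 0.41 on the log2 scale. Of 13 negative regulators 3 fell, Socs3 by 1.25, Socs1 by 0.94 and Nfkbia, the NF-kB inhibitor, by 0.38. Of the 12 inflammatory genes Ptgs2, the inducible cyclooxygenase, fell by 1.87 (adjusted p = 0.0385), and of the 7 ligand genes Tnc fell by 2.02 (adjusted p = 0.0393, limma). Neither the 5 other TLRs nor the 7 accessory genes had a member that passed the test.

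In PBMC against IF and in PBMC-hCG against PBMC, 0 genes of these lists passed the test (limma). Against control, where 20.2% of all genes were higher and 11.6% lower, PBMC-hCG had 6 of 21 transducers higher, led by Irf7 (1.63, adjusted p = 0.000162), and 2 of 5 other TLRs higher, Tlr8 (0.63) and Tlr6 (0.57). Cxcl10, an interferon-induced chemokine, was higher (1.23) and Ccl2 lower (-1.19) among the 12 inflammatory genes. Cd36 remained lower in PBMC (-3.00) and PBMC-hCG (-2.62) against control, at no more than 6.40 TPM in any of those 10 mice and at least 20.2 TPM in every control. Lbp, which carries LPS to CD14, was higher in PBMC (0.41) and PBMC-hCG (0.35).

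**Figure D5:**
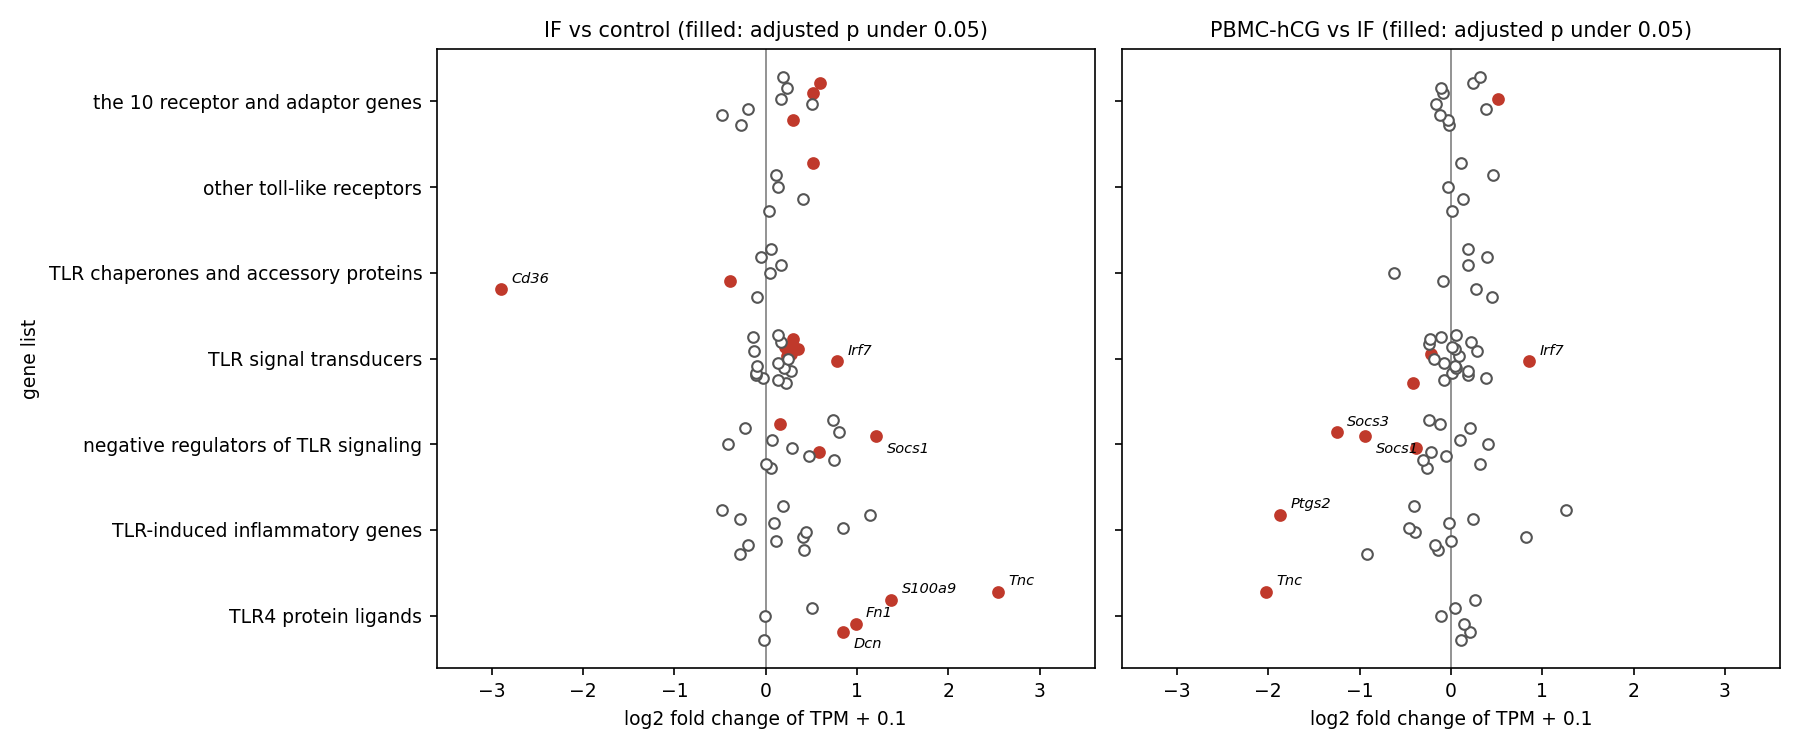
Log2 fold change of TPM + 0.1 (x axis) for single genes (points) of the TLR gene lists (y axis) in IF against control and in PBMC-hCG against IF. Filled points have an adjusted p under 0.05 (limma), and the called genes furthest from 0 are named. In IF against control, with all mice in the fit, the transducers that passed all lie to the right of 0. In PBMC-hCG against IF Tnc, Ptgs2, Socs3 and Socs1 lie to the left.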

How the data were processed

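RNA-seq libraries of 20 uteri (TruSeq Stranded mRNA, Illumina NovaSeq, 4 groups of 5 mice) were processed by the authors with Trimmomatic, HISAT2 on mm10 and StringTie, in versions not given in the sources used here. The deposited unit is TPM, which the authors' processing scaled to the same total in each library, so sequencing depth is unknown. Adding 0.1 before taking the log understates the fold change of a low gene. The genes tested had TPM above 0 in each of the 20 libraries (18706 of 45777, all 10 genes of interest among them, so that no separate test for untested genes was needed) on log2(TPM + 0.1) with limma 3.58.1 (R 4.3.3), a variance trend and all 4 groups in one fit. The 6 comparisons were adjusted separately (Benjamini-Hochberg), and a call is an adjusted p under 0.05. The authors' own test used edgeR on counts, which TPM does not allow. P-values rest on the spread between mice within groups, with 5 mice per group. This spread was pooled over all 4 groups and moderated across genes, so mice of groups outside a comparison enter its p-values. Motifs and overlaps were read from RefSeq promoters and GENCODE vM21 with Python 3.11.15.

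The 10 genes and all gene lists were chosen with earlier results of these data known. Named were all 10 genes, the 3 genes most like each, and from each list its counts with at most 4 of the largest rises and 4 of the largest falls, except that the 7 transducers that rose in IF were all named after their values were seen. Alternatives were other pseudocounts (1 and 0.01), filters, scalings, fits without the trend, with a replicate block or on 2 groups, leaving out each mouse, and, added after seeing the data, list counts without control replicate 2.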

Additional observations from a re-analysis of the deposited data

Results flagged for a closer look

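In 40 groups of 5 values (10 genes in 4 groups), 5 held a mouse that stood apart from the other 4 by Dixon's criterion, where chance gives about 2. Tlr4 was 16.8 TPM in control replicate 2, with the other controls between 9.89 and 11.7 TPM. Tlr5 was 1.81 TPM in the same mouse, with the others between 1.12 and 1.24 TPM. Tlr7 was 5.60 TPM in IF replicate 3, with the others between 3.57 and 4.16 TPM. Cd14 was 47.0 TPM in PBMC replicate 3, with the others between 33.1 and 36.4 TPM. Myd88 was 65.2 TPM in PBMC replicate 4, with the others between 55.5 and 57.5 TPM. The split of the control mice for Myd88, with 3 high and 2 low mice, did not meet this criterion, which looks for a single mouse.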

How the results depend on the processing

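The number of the 10 genes called changed most with the criterion. At a fold of at least 2 with an unadjusted p under 0.05 it was 0 in IF against control, in PBMC-hCG against IF, in PBMC against control and in PBMC-hCG against control. Replicate numbers were not used as pairs in the main fit. Of 30 same-numbered pairs 8 correlated above 0.1 (range -0.247 to 0.457), and 2 of 20 mice correlated best with their own number. The mice numbered 5 held the highest of these values, with 3 of their 6 pairs above 0.1. Replicate 5 was the lowest mouse for Tlr1, Tlr3 and Tlr7 in control, IF and PBMC, but not in PBMC-hCG. Whether mice of the same number share a source of variation was not tested. With a replicate block, 5 genes were called in PBMC against control (Tlr3 and Tlr9 added, adjusted p = 0.0235 and 0.0360, limma), and Ly96 was added in PBMC-hCG against control (adjusted p = 0.0395). With only the 2 groups compared, 1 gene (Tlr7) was called in PBMC against control, where fewer mice estimate the spread. Leaving out each mouse gave 2 to 4 called genes in IF against control, 2 to 4 in PBMC against control, 4 to 6 in PBMC-hCG against control, 0 to 1 in PBMC-hCG against IF, and 0 to 0 in the other two comparisons.

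Directions turned only for differences that passed the test in neither setting. Quantile normalization gave -0.00604 for Tlr4 in PBMC-hCG against PBMC, -0.0386 for Tlr1 in PBMC against control and -0.0178 for Tlr5 in PBMC-hCG against control, and TMM-style scaling gave -0.0185 and -0.0335 for the first 2. Leaving out a mouse gave, for Cd14, -0.0319 to 0.0946 (PBMC against IF), -0.101 to 0.0177 (PBMC-hCG against IF) and -0.112 to 0.0141 (PBMC-hCG against PBMC), and for Ly96 -0.0448 to 0.0524, -0.105 to 0.0224 and -0.102 to 0.0255. For Tlr5 it gave -0.158 to 0.0816, -0.179 to 0.0251 and -0.187 to 0.0773 in the same 3 comparisons. It gave -0.107 to 0.138 for Tlr1 in PBMC against control, -0.348 to 0.0016 for Tlr2 in PBMC-hCG against IF, -0.0226 to 0.0471 for Tlr4 in PBMC-hCG against PBMC and -0.149 to 0.0337 for Tlr7 in PBMC against IF. The cause was not tested. Of the single-gene values under all settings, 1056 kept direction and call, 29 lost the call, 20 gained it and 35 turned. Without control replicate 2, PBMC against control had 7 in place of 4 transducers higher. IF and PBMC-hCG against control each had 8 higher and 1 lower, in place of 7 and 0 and of 6 and 0. Since TPM hold no depth, counting error for low genes such as Tlr5 cannot be given.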
